A study of Arabidopsis thaliana with 56 samples.

Results

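The regions described here carried H3K27me3 in every one of 6 wild-type (WT) peak lists of Arabidopsis thaliana, 3 from endosperm and 3 from leaf. They were chosen by the authors' peak calls in those lists, as 150 bp bins of chromosomes 1 to 5 that lay under a peak in all 6 lists, with adjacent bins joined and runs of at least 300 bp kept. The rule gave 4095 common regions that span 13.5 Mb, of 5779 regions and 41.7 Mb that lay under a peak in any of the 12 lists of the series. The WT lists therefore chose the members, and cover in those lists is a description of the choice. Cover in the crwn1/2 lists, which the rule did not use, is the measurement.

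H3K27me3 is trimethylation of lysine 27 of histone H3, deposited by Polycomb repressive complex 2 (PRC2) and found over silent genes, among them most regulators of flowering, meristems and seed maturation in tissues that do not use them. The proteins CRWN1 and CRWN2 build the lamina-like meshwork that lines the inside of plant nuclei, where part of the silent chromatin is held. The endosperm is the nutritive tissue of the seed, with an extra maternal genome, and several of its imprinted genes are PRC2 targets.

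The study compared plants labelled crwn1/2 with WT plants. H3K27me3 was profiled by CUT&RUN, an assay that releases and sequences the DNA under an antibody, in 3 crwn1/2 and 3 WT libraries of endosperm and in 3 crwn1/2 and 3 WT libraries of leaf. Endosperm nuclei were sorted at 6C from the seeds of several siliques, a gate meant to leave out the seed coat and embryo, and leaf nuclei of 2C, 4C, 8C and 16C from the fifth leaf of plants were combined. No label gave the day of the endosperm used for H3K27me3. Endosperm mRNA came from 6C nuclei of crwn1/2 at 6, 7 and 8 days after pollination (DAP), with 3, 5 and 4 libraries, and of WT at 6 and 7 DAP, with 4 libraries each. No label said whether the replicates came from separate plants, so p-values measure the spread between these libraries.

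The crwn1/2 endosperm lists rested on fewer reads than the WT ones, and every comparison of genotypes in endosperm carries this difference. With M for mega, they held 1.59, 0.514 and 1.15 M reads inside peaks over 22.1, 16.7 and 22.04 Mb, against 2.20, 2.21 and 2.83 M over 24.4, 23.8 and 26.4 Mb in WT endosperm. In leaf the crwn1/2 lists held 2.96, 3.31 and 2.84 M reads over 25.5, 25.9 and 21.3 Mb, against 3.78, 3.62 and 3.28 M over 23.5, 23.0 and 23.2 Mb in WT. Reads outside peaks are unknown here, so library depth is unknown. The number of reads and the genotype cannot be told apart in endosperm, where their ranges did not overlap. Total counts of the mRNA libraries ranged from 6986418 to 14359413. CRWN2 (listed as LINC2) averaged 29.2 CPM in crwn1/2 and 69.9 CPM in WT at 6 DAP, with an edgeR quasi-likelihood adjusted p of 0.00392. CRWN1 (listed as LINC1) averaged 81.2 CPM in crwn1/2 and 116 CPM in WT at that day. Reads at either gene therefore remained in the libraries labelled crwn1/2, and these gene totals do not show which part of a gene they came from.

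The common regions were short blocks spread along the chromosome arms. Their median length was 2250 bp, the central 50% lay between 1350 and 3900 bp, and the range ran from 300 to 28200 bp. The 182 regions of at least 10 kb held 19.1% of the common bases, and the 714 of at least 5 kb held 46.3%. At the other end 487 regions were shorter than 1 kb and held 2.53% of the bases. At the length threshold, 39 regions had exactly 300 bp, and 61 single bins of 150 bp were left out. Endosperm crwn1/2 lists covered 75.6%, 32.1% and 76.9% of the bases of those 39 and 52.5%, 49.2% and 59.0% of those of the 61, and leaf crwn1/2 lists covered 89.7%, 93.6% and 69.2%, and 86.9%, 88.5% and 78.7%.

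Chromosomes 1, 2, 3, 4 and 5 held 1148, 670, 754, 613 and 910 common regions, over 4.00, 2.09, 2.41, 2.00 and 2.97 Mb. In windows of 1 Mb the median number of regions was 41, 39.5, 31, 35 and 32 on these chromosomes. Fewer than 10 regions lay in each window between 14 and 16 Mb on chromosome 1, 2 and 6 Mb on chromosome 2, 12 and 15 Mb on chromosome 3, 3 and 5 Mb on chromosome 4, and 11 and 14 Mb on chromosome 5. Each of these gaps held a window with no region at all, and on chromosome 4 both windows had none, while the fullest window of the genome, on chromosome 5, held 75. These positions use TAIR10, the build that the submitters' processing notes name.

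Peaks that touched a common region were stronger than the other peaks of the same list. By the authors' deposited table, the median log2 enrichment over the control was 0.856, 1.33 and 1.07 for peaks touching a common region in crwn1/2 endosperm, against 0.547, 0.986 and 0.715 for the other peaks. In crwn1/2 leaf the same medians of the authors' deposited table were 1.23, 1.26 and 1.59, against 0.718, 0.723 and 0.938. The peaks touching a common region were also longer, with medians of 3.45, 2.55 and 3.45 kb against 2.1, 1.65 and 1.95 kb in crwn1/2 endosperm. The order was thus the same in these 6 lists, none of which chose the regions. A longer peak touches a region more easily, and the part of this in the order was not tested.

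The crwn1/2 lists still covered most common bases in both tissues, and the endosperm lists covered fewer of them than the leaf lists. In endosperm the 3 crwn1/2 lists covered 86.1%, 79.3% and 90.7% of the common bases, a mean of 85.4% ± 5.73 (SD, n = 3). In leaf they covered 96.9%, 98.5% and 96.8%, a mean of 97.4% ± 0.977 (SD, n = 3). The endosperm values all lay below the leaf values, with a difference of -12.02 percentage points and a two-sided exact permutation p of 0.1. With 3 lists against 3 the smallest p that this test can give is 0.1. The crwn1/2 endosperm lists also held fewer reads inside peaks than the crwn1/2 leaf lists, 0.514 to 1.59 M against 2.84 to 3.31 M. WT lists scored on regions built without them, as described below, differed by tissue too, with means of 94.1% in endosperm and 98.1% in leaf. The part of these in the tissue difference was not tested.

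**Figure D1:**
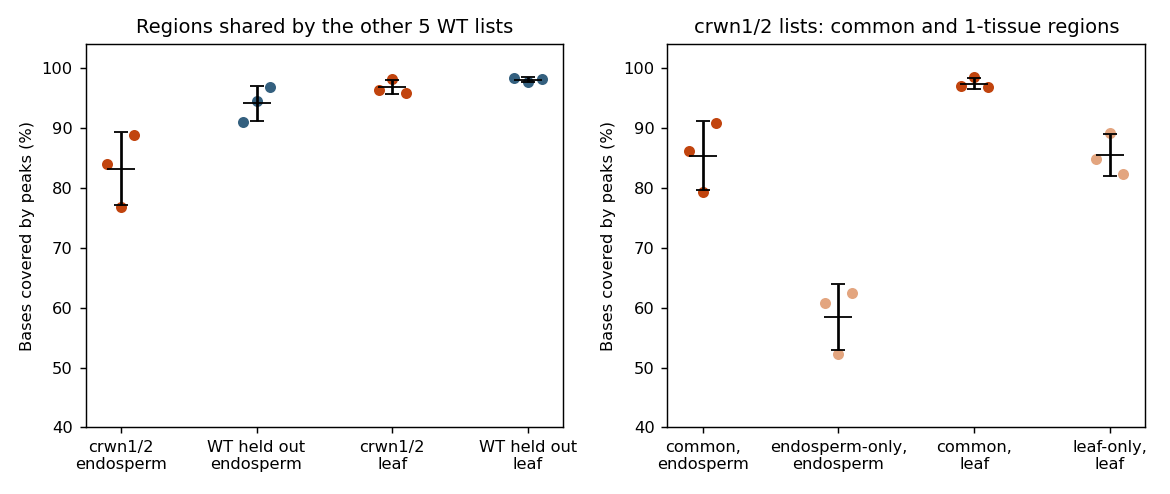
Share of the bases of WT common regions covered by a peak, in percent, for each peak list (points), with the mean as a line and the SD over 3 lists as its error. On the left, where regions were built without 1 WT list, the crwn1/2 endosperm points all lie below those of the left-out WT lists and the leaf points overlap; on the right, the crwn1/2 lists cover common regions (dark) more than endosperm-only or leaf-only ones (pale).

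A WT list covers every common base by construction, so it is no yardstick for crwn1/2. The comparison of genotypes therefore used regions rebuilt without 1 WT list of the tissue, on which that left-out list and the crwn1/2 lists were both scored. On these, crwn1/2 endosperm covered 84.0%, 76.8% and 88.8%, a mean of 83.2% ± 6.05, and WT endosperm covered 91.0%, 94.5% and 96.8%, a mean of 94.1% ± 2.94 (SD, n = 3 each). The difference was -10.9 percentage points with no overlap and an exact permutation p of 0.1, the smallest the design allows. In leaf, crwn1/2 covered 96.4%, 98.1% and 95.8%, a mean of 96.8% ± 1.19, and WT covered 98.4%, 97.7% and 98.1%, a mean of 98.1% ± 0.364. The leaf difference was -1.28 points, the genotypes overlapped, and the exact permutation p was 0.2.

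The endosperm difference was smaller between lists of equal covered length. When every list was trimmed to its strongest peaks up to the same covered length, 16.7 Mb in endosperm, crwn1/2 covered 85.3%, 83.5% and 89.5% of the left-out common bases and WT covered 90.2%, 92.9% and 91.5%. The endosperm difference was then -5.42 points, with no overlap and an exact permutation p of 0.1. The regions were rebuilt from the trimmed lists, and with all 6 WT lists they numbered 1960 in place of 4095, so the set of regions changed along with the lists and their parts in the smaller difference were not tested. At 21.3 Mb in leaf, crwn1/2 covered 96.2%, 97.0% and 97.0% and WT covered 98.5%, 98.0% and 98.5%, a difference of -1.62 points with no overlap and an exact permutation p of 0.1.

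The crwn1/2 lists covered a larger share of the common regions than of the regions of 1 tissue. The 1828 endosperm-only regions, which all 3 WT endosperm lists and no WT leaf list covered, had 60.8%, 52.2% and 62.4% of their 3.39 Mb covered in crwn1/2 endosperm. Common regions exceeded them by 26.9 points in the mean, in 3 of 3 lists. The 1967 leaf-only regions had 84.8%, 89.2% and 82.3% of their 2.35 Mb covered in crwn1/2 leaf, and common regions exceeded them by 11.96 points, again in 3 of 3 lists. Sign flips over 3 lists cannot give an exact permutation p under 0.25, and both comparisons gave 0.25. The common regions had lengths and peak strengths unlike those of the other classes, and the part of these in the difference was not tested. Common regions also needed a peak in every WT list of both tissues, the others only in the WT lists of 1 tissue. Left-out WT lists were scored on common regions alone, so these gaps have no WT background. The part of the choice rule in them was not tested.

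Taken region by region, missing cover in crwn1/2 endosperm was made up of trimmed regions and of regions with no peak at all. At least 50% of the bases were covered in 3416, 3209 and 3709 of the 4095 regions in the 3 crwn1/2 endosperm lists, which are 83.4%, 78.4% and 90.6%. Every base was covered in 2082, 1223 and 2355, some but not all in 1436, 2230 and 1459, and no base in 577, 642 and 281. Regions with no peak held 44.3%, 30.1% and 27.2% of the missing bases. The crwn1/2 leaf lists kept at least 50% of 3926, 4008 and 3972 regions and every base of 3529, 3763 and 3260. They left 144, 79 and 92 regions without a peak.

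The crwn1/2 lists of 1 tissue did not all leave out the same regions. At least 50% of the bases were covered in all 3 crwn1/2 endosperm lists for 2764 regions (67.5%), in all 3 crwn1/2 leaf lists for 3820 (93.3%), and in all 6 lists for 2635 (64.3%). No crwn1/2 endosperm list reached 50% for 134 regions and no crwn1/2 leaf list for 22. There were 100 regions with no base in any crwn1/2 endosperm list, 17 with none in any crwn1/2 leaf list, and 2 with none in any of the 6. The count of 100 became 171, 165, 164 and 248 on leaving out WT replicate 1 and crwn1/2 replicates 1, 2 and 3 of endosperm. The count of 17 became 35, 28, 27 and 45 on leaving out WT replicate 3 and crwn1/2 replicates 1, 2 and 3 of leaf. Regions kept in all 3 leaf lists but not in all 3 endosperm lists numbered 1185, and the reverse held for 129.

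**Figure D2:**
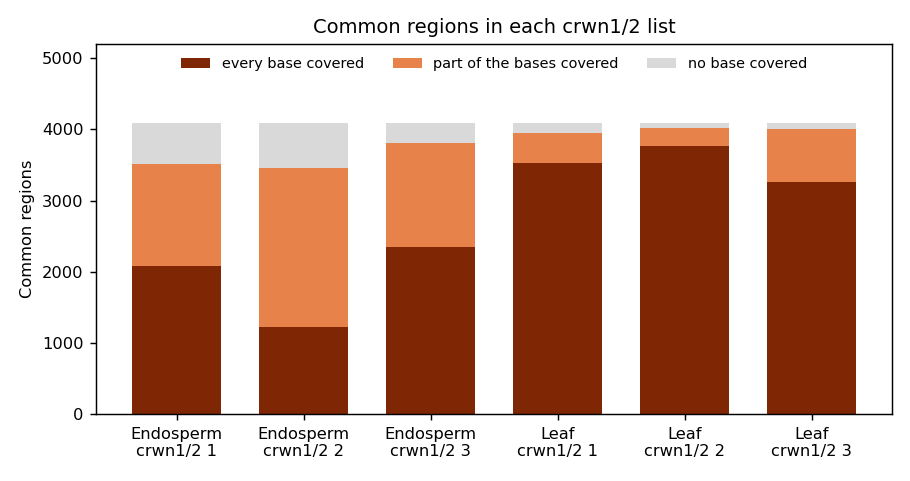
Number of the 4095 common regions by how much of them each of the 6 crwn1/2 peak lists covered: every base, some of the bases, or none, stacked to the total. The endosperm lists have 577, 642 and 281 regions with no covered base, against 144, 79 and 92 in the leaf lists.

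Short regions were kept less often than long ones. By how many crwn1/2 endosperm lists kept at least 50% of them, from 0 to 3, the regions had median lengths of 1200, 1275, 1650 and 2850 bp. A short region has fewer bins to lose, so left-out WT lists give the background. Among regions under 1 kb, crwn1/2 endosperm covered 59.2%, 45.9% and 69.3% of the bases, against 70.5%, 83.6% and 87.7% in the left-out WT lists. From 1 kb to under 2 kb the values were 65.0%, 58.6% and 77.3% in crwn1/2 and 80.0%, 89.0% and 93.4% in WT. From 2 kb to under 5 kb they were 81.2%, 72.9% and 86.6% in crwn1/2 and 89.8%, 93.6% and 96.5% in WT. At 5 kb or more crwn1/2 covered 92.3%, 85.9% and 94.4% and WT covered 95.4%, 97.2% and 98.6%. The crwn1/2 lists stayed below every left-out WT list in all 4 length classes of endosperm, and cover rose with length in both genotypes. In leaf the shortest class had 87.7%, 92.4% and 85.7% in crwn1/2 and 96.0%, 90.4% and 92.7% in WT, which overlap, and the longest had 98.7%, 99.5% and 97.2% in crwn1/2 against 99.1%, 98.4% and 99.2% in WT, which overlap too. The middle leaf classes did not overlap. From 1 kb to under 2 kb crwn1/2 leaf covered 91.8%, 95.07% and 92.5% and WT leaf 96.8%, 95.4% and 95.27%, and from 2 kb to under 5 kb crwn1/2 covered 95.9%, 98.01% and 96.0% and WT 98.2%, 98.08% and 98.3%.

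**Figure D3:**
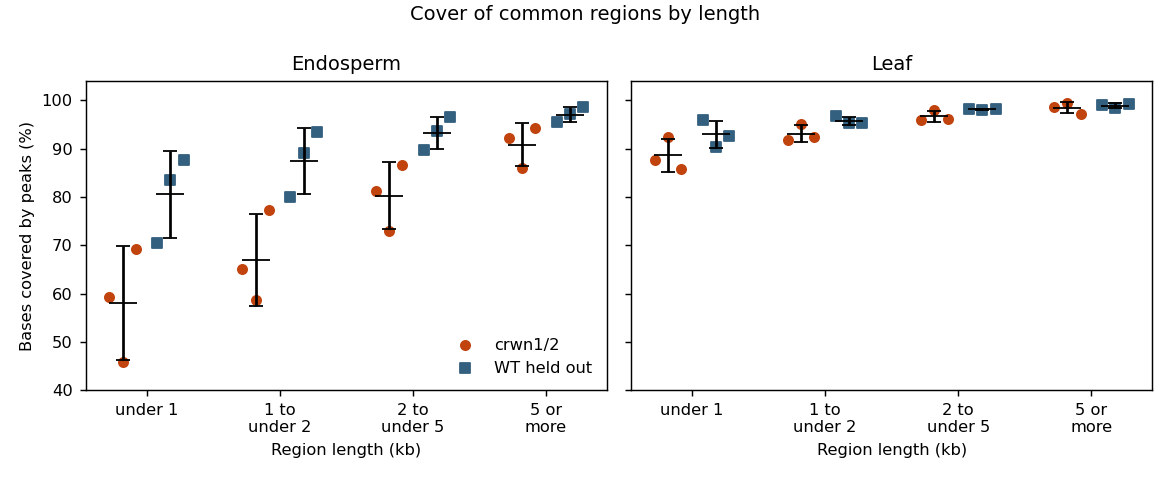
Share of bases covered, in percent, by length class of the common regions in kb, for crwn1/2 lists and for left-out WT lists (held out) of endosperm and leaf, each point a list, with the mean as a line and the SD over 3 lists as its error. Endosperm points of crwn1/2 lie below the WT points in each class and approach them with length, from 45.9% to 69.3% in the shortest class to 85.9% to 94.4% in the longest.

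Missing cover did not sit on 1 chromosome. Across the 5 chromosomes, crwn1/2 endosperm replicate 1 covered 84.9% to 87.4% of the common bases, replicate 2 covered 77.0% to 80.8%, and replicate 3 covered 89.9% to 91.2%. The spread between replicates was larger than that between chromosomes. Within a chromosome, cover was uneven. In windows of 1 Mb the mean over crwn1/2 endosperm lists was, for example, 69.4% at 1 to 2 Mb and 93.9% at 7 to 8 Mb of chromosome 3. On chromosome 1 it was 74.4% at 0 to 1 Mb and 93.4% at 24 to 25 Mb. No WT background by window is given here.

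The longest common regions remained almost whole. The longest, chr3:7724101-7752300 with 28.2 kb, was covered at every base in all 6 crwn1/2 lists, as was chr2:19205251-19227150 with 21.9 kb. The second of these holds NST1, a master regulator of secondary wall thickening, and 3 genes named as gulonolactone oxidases (GulLO2, GulLO5 and GulLO6). The region chr2:9322801-9349500 (26.7 kb) holds WRKY59, a WRKY factor, and was covered at 100%, 96.6% and 96.1% in crwn1/2 endosperm and 100%, 100% and 97.2% in crwn1/2 leaf. Among the 10 longest, the lowest endosperm cover was that of chr1:22117501-22142400 (24.9 kb) around the MADS-box gene AGL49, with 83.7%, 86.1% and 85.5%, while crwn1/2 leaf covered all of it. The region chr1:24326701-24348600 (21.9 kb) holds FT, the florigen gene. It kept 100%, 98.6% and 100% in crwn1/2 endosperm and 93.2%, 100% and 87.0% in crwn1/2 leaf, and FT itself was covered whole in all 6 lists. The region chr4:10745101-10770450 (25.35 kb) holds the chitinase gene ChiC and kept 100%, 91.1% and 97.6% in crwn1/2 endosperm and 100%, 100% and 97.0% in crwn1/2 leaf. The region chr5:20375101-20398500 (23.4 kb) was covered whole in crwn1/2 endosperm and at 100%, 100% and 91.0% in crwn1/2 leaf. On chromosome 1, chr1:12217951-12240000 (22.05 kb), which holds the cytochrome P450 genes CYP76C5 and CYP76C6, kept 100%, 97.3% and 99.3% in crwn1/2 endosperm, and chr1:21636601-21658500 (21.9 kb) kept 100%, 91.8% and 100%.

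Named losses were small regions. The longest region with no base in any crwn1/2 endosperm list was chr3:8905051-8907750 (2.7 kb), which touches no annotated gene and kept 88.9%, 100% and 94.4% in crwn1/2 leaf. Next came chr1:11117251-11119650 (2.40 kb) over the MADS-box gene GOA, with 75%, 93.8% and 100% in crwn1/2 leaf, and chr2:11174101-11176350 (2.25 kb), with no gene and full cover in leaf. In leaf the longest without any base was chr4:12187051-12190200 (3.15 kb) over the receptor-like kinase gene CRK23, which kept 100%, 90.5% and 100% in crwn1/2 endosperm. The others were chr1:5132551-5135250 (2.7 kb) over PCR1, a cadmium resistance gene, with 100%, 94.4% and 72.2% in endosperm, and chr3:8226001-8228250 (2.25 kb), which touches XRCC4, a gene of DNA end joining, with full cover in endosperm. Only 3 regions were under 50% in all 6 crwn1/2 lists. They include chr4:8088001-8089050 over AT4G13992 and chr3:21188551-21188850 touching the glucanase gene BGL2.

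The same rule applied to the 6 crwn1/2 lists gave 3769 regions, 9.80 Mb in all with a median of 1800 bp. Of their bases, 91.8% lay in the WT common regions, and 66.9% of the WT common bases lay in them. Across the 5 chromosomes 2 regions were covered in all 6 crwn1/2 lists and at no base in any WT list. They were chr2:12562051-12562350, which touches AT2G29210, and chr3:4868101-4868550, which touches AT3G14510.

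Most common regions touched a gene. Of the 4095, 3393 (82.9%) touched a protein-coding gene at any base, 1545 (37.7%) held a whole one and 480 touched no annotated entry. The most coding genes touched by 1 region was 11. Coding spans held 51.8% of the common bases, and no background share over the genome was computed. Regions kept in 0, 1, 2 and 3 crwn1/2 endosperm lists touched a coding gene in 57.5%, 67.3%, 77.0% and 87.8% of cases, and they also differed in length as given above. In all 4081 genes had at least 50% of their span in common regions. Among them were 3884 of 26700 coding genes (14.5%), 58 of 178 miRNA genes (32.6%), 95 of 3910 pseudogenes (2.43%) and 11 of 224 long non-coding RNA genes (4.91%). Of the 4081 genes, 3195 were covered to at least 50% in all 3 crwn1/2 endosperm lists and 3882 in all 3 crwn1/2 leaf lists. No list reached 50% for 76 in endosperm and for 15 in leaf.

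Genes in common regions were seldom expressed in endosperm of either genotype. At 6 DAP 30.9% to 33.2% of the coding genes reached 1 CPM in the crwn1/2 libraries and 28.7% to 32.1% in the WT libraries. At 7 DAP the share was 29.2% to 31% in crwn1/2 and 32.1% to 46.4% in WT. Over all coding genes, the means of crwn1/2 and WT were 70.6% and 69.8% at 6 DAP and 70.2% and 72.2% at 7 DAP. The WT libraries at 7 DAP held more genes with trace counts, since 10.4% to 31.2% of the coding genes in common regions had no count at all in crwn1/2 libraries at 7 DAP, against 2.65% to 6.80% in WT libraries. At a floor of 10 CPM the shares overlapped, with 10.04% to 11.9% in crwn1/2 and 10.5% to 11.4% in WT at 7 DAP. None of 7 housekeeping genes lay in common regions.

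**Figure D4:**
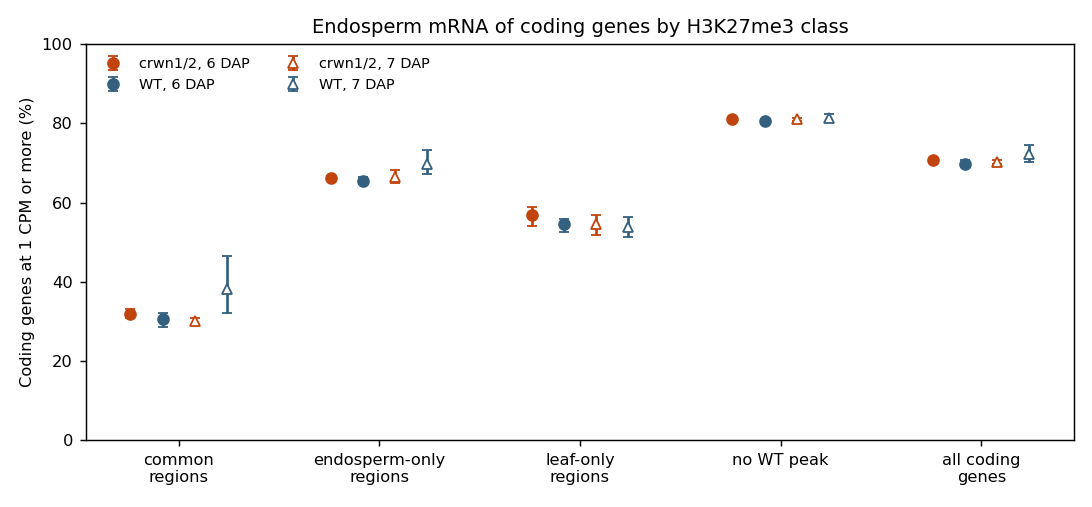
Share of protein-coding genes at 1 CPM or more, in percent, in endosperm mRNA of crwn1/2 and WT at 6 and 7 DAP, by H3K27me3 class of the gene in the WT lists, with the group mean as a point and the lowest to highest library as its bar. Genes in common regions lie at 28.7% to 46.4%, below the means of 65.5% to 69.8% of endosperm-only genes, 53.8% to 56.9% of leaf-only genes and 80.6% to 81.3% of genes without a WT peak.

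Of the 4081 genes, 1834 had enough counts to be tested, and both higher and lower genes were found among them in crwn1/2. At 6 DAP 214 were higher (11.7%) at an edgeR adjusted p under 0.05, against 6.83% of all tested genes placed on chromosomes 1 to 5, and 181 were lower (9.87%) against 6.15%. Their median log2 difference was -0.00, against 0.02 over all genes tested. At 7 DAP 193 were higher (10.5%), against 11.7% of all, and 325 were lower (17.7%), against 10.5% of all. Their median was -0.19, against 0.06 over all. Among the 695 genes with a mean of at least 5 CPM, a limit chosen after seeing the data, 144 were higher (20.7%) against 14.3% of all and 152 were lower (21.9%) against 8.89% of all at 7 DAP. At 6 DAP 115 of these were higher (16.5%) against 7.12%, and 137 were lower (19.7%) against 7.31%. The 7 DAP share of higher genes thus stood below that of all genes tested without this limit and above it with the limit. Without crwn1/2 replicate 2 at 6 DAP, 136 were higher (6.55%) against 4.13% and 118 were lower (5.69%) against 3.05%. Without WT replicate 1 at 7 DAP, 153 were higher (8.65%) against 7.86% and 203 were lower (11.5%) against 7.23%.

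Both higher and lower genes were found at each level of cover in crwn1/2 endosperm. By the number of crwn1/2 endosperm lists, 0, 1, 2 or 3, that covered at least 50% of the gene, 40, 86, 298 and 1410 were tested. At 6 DAP 3, 19, 53 and 139 of these were higher (7.50%, 22.1%, 17.8% and 9.86%), against 6.83% of all tested genes. Lower at that day were 3, 9, 31 and 138 (7.50%, 10.5%, 10.4% and 9.79%), against 6.15%. At 7 DAP 7, 12, 45 and 129 were higher (17.5%, 13.95%, 15.1% and 9.15%), against 11.7% of all tested genes. Lower at that day were 5, 13, 45 and 262 (12.5%, 15.1%, 15.1% and 18.6%), against 10.5%. The difference between these groups of genes was not tested, and the day of the endosperm behind the peak lists is not given.

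Markers of endosperm and of the other seed tissues moved with genotype in the same libraries, and their part in the gene results below was not tested. The 5 seed coat markers, among them BAN, an enzyme of proanthocyanidin synthesis, summed to 1607 to 2045 CPM in crwn1/2 and 869 to 1017 CPM in WT at 6 DAP. At 7 DAP they summed to 702 to 1102 CPM in crwn1/2 and 550 to 827 CPM in WT. Of the 5, 3 were higher at 6 DAP and 1 at 7 DAP, against 6.83% and 11.7% of all tested genes. The 4 embryo markers summed to 156 to 181 CPM in crwn1/2 and 148 to 235 CPM in WT at 6 DAP, and to 125 to 188 CPM in crwn1/2 and 39.7 to 71.1 CPM in WT at 7 DAP. Most of that sum was LEC1, an embryo regulator outside the common regions, with a mean of 140.1 CPM in crwn1/2 and 51.0 CPM in WT at 7 DAP (log2 difference 1.46, edgeR adjusted p = 3.39e-06), while STM and WOX2 did not pass at that day (0.349 and 0.357). WUS, the defining stem cell gene among them, stayed between 0.00 and 1.27 CPM in all these libraries. The sums of the 8 endosperm markers overlapped, with 238 to 311 against 263 to 284 CPM at 6 DAP and 253 to 325 against 260 to 366 CPM at 7 DAP. Single markers did move. Of the 7 tested, 4 were higher and 0 lower at 6 DAP, against 6.83% and 6.15% of all tested genes. Their median log2 difference at 6 DAP was 2.72. At 7 DAP 3 were higher and 1 lower, against 11.7% and 10.5%. In such bulk samples fewer nuclei of a type and less RNA per nucleus cannot be told apart.

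All 10 of the listed genes for seed storage proteins and oil body proteins lay in common regions, and most were lower in crwn1/2. At 6 DAP 3 of the 10 were lower and at 7 DAP 8 of 10, with no gene higher, against 6.15% and 10.5% of all tested genes. Summed over the list, crwn1/2 had 92.9 to 387 CPM and WT 430 to 642 CPM at 6 DAP, and crwn1/2 had 1018 to 8499 CPM and WT 6932 to 24649 CPM at 7 DAP. CRU3, a cruciferin storage globulin, had 3.32, 153, 336, 240 and 75.8 CPM in crwn1/2 at 7 DAP and 1321, 984, 2652 and 418 CPM in WT. The genotypes did not overlap, and the log2 difference was -3.05 ± 0.62 (SE, edgeR adjusted p = 0.00159). Its gene was covered whole in all 6 crwn1/2 lists.

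OLEO1, a major oleosin of oil bodies, had 149, 616, 960, 799 and 475 CPM in crwn1/2 and 2365, 2299, 2253 and 1177 CPM in WT at 7 DAP. It fell by 1.75 ± 0.36 on the log2 scale (SE, edgeR adjusted p = 0.00176) with no overlap. No crwn1/2 endosperm list had a peak on OLEO1, while all 3 leaf lists covered it whole. At 6 DAP it was lower by a log2 difference of -1.47 (edgeR adjusted p = 0.0274). That call was lost, with adjusted p up to 0.152, on leaving out WT replicate 2, 3 or 4 or crwn1/2 replicate 2 or 3. OLEO2, a second oleosin, had log2 differences of -1.46 at 6 DAP (edgeR adjusted p = 0.00851, but 0.0688 without crwn1/2 replicate 2) and -1.25 at 7 DAP (0.00483), where the genotypes overlapped.

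The albumin genes SESA1 to SESA4 lie in a cluster and are close copies, so reads may be split among them, while SESA5 lies on another chromosome. At 7 DAP the log2 difference was -2.40 for SESA5 (edgeR adjusted p = 0.000375), -2.47 for SESA4 (0.00242), -1.66 for SESA3 (0.0156) and -1.50 for SESA2 (0.0234). The SESA2 call was lost without WT replicate 3 or crwn1/2 replicate 5, with adjusted p up to 0.0934. At 6 DAP SESA3 had a log2 difference of -2.11 (0.0248), lost without WT replicate 3 or 4 or crwn1/2 replicate 2 or 3, with adjusted p up to 0.125. The globulin gene CRU2 fell by 2.15 at 7 DAP (0.00575). SESA2, SESA3, SESA4 and CRU2 overlapped between genotypes at that day, since WT replicate 4 lay within the crwn1/2 range of each. With a term for the replicate number in the model, the 7 DAP calls of SESA3, SESA4, CRU2, CRU3 and OLEO2 were lost. SESA1 and the globulin gene CRA1 did not pass, with log2 differences of -0.91 (adjusted p = 0.078) and -1.28 (0.0642).

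Of the 8 listed seed maturation regulators, 5 lay in common regions, of which 1 was lower at 6 DAP and 2 at 7 DAP, against 6.15% and 10.5% of all tested genes. FUS3, a B3-domain factor that drives storage programmes, had 289, 138 and 196 CPM in crwn1/2 and 391, 374, 533 and 441 CPM in WT at 6 DAP. At 7 DAP it had 365, 730, 555, 604 and 769 CPM in crwn1/2 and 1198, 1052, 888 and 916 CPM in WT. The genotypes did not overlap at either day, with log2 differences of -1.07 ± 0.24 and -0.75 ± 0.20 (SE, edgeR adjusted p = 0.00421 and 0.0101). DOG1, which sets seed dormancy, had 0.995, 0.829, 1.04, 0.903 and 1.22 CPM in crwn1/2 and 23.6, 0.936, 8.402 and 2.80 CPM in WT at 7 DAP. WT replicate 1 was the highest, and the log2 difference of -3.16 (edgeR adjusted p = 0.00242) was -2.05 (0.0316) without it. This call was lost with a term for the replicate number in the model. The B3 factors LEC2 and ABI3 and the AP2-type factor ABI4 did not pass at either day, with ABI3 at log2 differences of -0.71 (0.0524) and -0.41 (0.149).

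**Figure D5:**
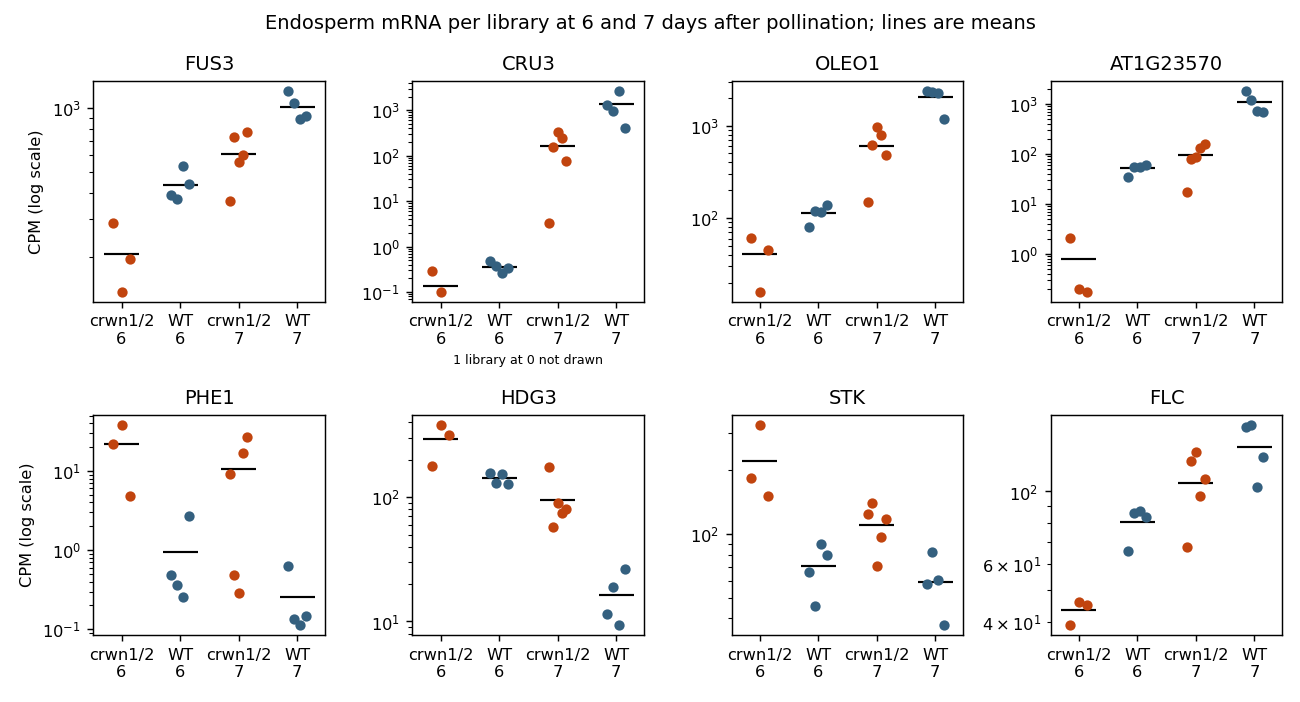
CPM on a log axis in each endosperm mRNA library (points) of crwn1/2 and WT at 6 and 7 DAP, with group means as bars, for 8 genes in common regions. FUS3, CRU3, OLEO1 and AT1G23570 have lower means in crwn1/2 at 7 DAP, while PHE1, HDG3 and STK have higher ones, and 1 CRU3 library at 0 CPM is not drawn.

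Of 10 listed imprinted genes, 8 lay in common regions and 7 of those were tested. At 6 DAP 4 were higher in crwn1/2 and at 7 DAP 3, with none lower, against 6.83% and 11.7% of all tested genes higher. PHE1, a type I MADS-box gene expressed from the paternal copy in endosperm, had 21.7, 38.1 and 4.88 CPM in crwn1/2 at 6 DAP and 0.481, 0.365, 0.259 and 2.72 CPM in WT. The log2 difference was 4.45 ± 1.06 (SE, edgeR adjusted p = 0.00709) with no overlap. At 7 DAP crwn1/2 had 9.06, 0.484, 0.284, 17 and 26.7 CPM and WT 0.634, 0.134, 0.112 and 0.147 CPM. There the groups overlapped, since crwn1/2 replicates 2 and 3 lay below WT replicate 1, and the log2 difference was 5.29 ± 1.2 (0.00343). PHE1 was covered whole by a peak in all 6 crwn1/2 lists.

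AGL38, a type I MADS-box gene also known as PHE2 and a near neighbour of PHE1, had log2 differences of 5.60 (edgeR adjusted p = 0.000821) at 6 DAP and 4.28 (0.00327) at 7 DAP, where the genotypes overlapped. It had no covered base in crwn1/2 endosperm replicate 2 and was covered whole in the other 5 crwn1/2 lists. The pair are close copies, so reads could be split between them. HDG3, a homeodomain factor expressed from the paternal copy, had 174, 57.3, 89.6, 75.1 and 80.7 CPM in crwn1/2 at 7 DAP and 11.4, 18.9, 9.30 and 26.2 CPM in WT. It was higher with no overlap (log2 difference 2.54 ± 0.33, edgeR adjusted p = 1.9e-05). At 6 DAP its difference was 1.04 (0.0412), a call lost on leaving out any library but crwn1/2 replicate 1, with adjusted p up to 0.182.

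The other imprinted genes rested on fewer libraries. MEA, the methyltransferase of seed PRC2 and maternally expressed, was higher at 6 DAP by 1.82 (edgeR adjusted p = 0.0222), a call lost without WT replicate 1 or 3 or crwn1/2 replicate 2, with adjusted p up to 0.163. SUVH7, a SET-domain gene, was higher at 6 DAP by 2.21 (0.0431), a call lost without WT replicate 1, 2 or 4 or crwn1/2 replicate 2 or 3, with a log2 range of 1.30 to 2.97 and adjusted p up to 0.311. VIM5, of the methylcytosine-binding VIM family, was higher at 7 DAP by 0.61 (0.0302), lost without WT replicate 1, 2 or 3 or crwn1/2 replicate 2 or 4, with adjusted p up to 0.0902. YUC10, an auxin synthesis gene, did not pass at either day, with log2 differences of -0.34 (0.594) and 0.07 (0.905).

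Of 17 listed floral and flowering time regulators, 10 lay in common regions and 6 of those were tested. Those not tested, the floral meristem identity genes LFY, AP1, CAL and AGL8, did not exceed 2.41 CPM in all crwn1/2 and WT libraries of 6 and 7 DAP. STK, a MADS-box factor of ovule identity, had 185, 327 and 151 CPM in crwn1/2 and 66.5, 45.6, 90.0 and 79.8 CPM in WT at 6 DAP, with no overlap and a log2 difference of 1.65 ± 0.27 (edgeR adjusted p = 0.000237). At 7 DAP it was higher by 0.88 (0.0124), with 0.0501 without WT replicate 4, and the genotypes overlapped. FLC, a repressor of flowering and a classic PRC2 target, had 38.9, 46.0 and 45.0 CPM in crwn1/2 and 65.8, 86.0, 87.0 and 83.4 CPM in WT at 6 DAP. It fell by 0.89 ± 0.19 on the log2 scale (0.00284), and at 7 DAP its difference of -0.37 (0.1) did not pass. FLC was covered whole in all 6 crwn1/2 lists.

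FT was lower at 7 DAP, with 2.54, 1.80, 5.58, 1.05 and 1.49 CPM in crwn1/2 and 5.96, 5.35, 18.7 and 17.5 CPM in WT. Its log2 difference was -2.25 (edgeR adjusted p = 0.0216), a call lost without WT replicate 3 or 4 or crwn1/2 replicate 2, 4 or 5, with adjusted p up to 0.0641. AP3, which specifies petals and stamens, had no peak in any crwn1/2 endosperm list but 92.5%, 100% and 100% cover in crwn1/2 leaf. Its mRNA had a log2 difference of 0.70 (0.0588) at 6 DAP and 0.20 (0.54) at 7 DAP. Thus it did not pass the test at either day.

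Regulators of meristems and organ pattern lay in common regions nearly throughout. They included 7 of 9 meristem regulators, 10 of 13 WOX homeobox genes, all 4 PLETHORA genes and all 6 YABBY genes. WUS, CLV3 and STM, which maintain the shoot meristem, were covered whole in all 6 crwn1/2 lists. Of the 6, 7, 4 and 5 members of these lists that lay in common regions and were tested, 1 was higher and 1 lower at 6 DAP, against 6.83% and 6.15% of all tested genes, and 2 were higher and none lower at 7 DAP, against 11.7% and 10.5%. KNAT1, a KNOX homeobox gene, had 6.65, 3.97 and 7.28 CPM in crwn1/2 and 10.5, 19.1, 19.7 and 18.9 CPM in WT at 6 DAP, a log2 difference of -1.51 (edgeR adjusted p = 0.00408). KNAT6, of the same family, was higher at 7 DAP by 1.29 (0.00382) with overlapping genotypes, and WOX2, which patterns the early embryo, was higher at 6 DAP by 3.04 (0.0111). AIL6, of the PLETHORA group, was higher at 7 DAP by 0.39 (0.014, but 0.0653 without WT replicate 2), and no YABBY gene passed at either day.

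Outside these lists, the largest falls were in genes whose WT level was higher at 7 DAP than at 6 DAP. AT1G23570 had 2.05, 0.204 and 0.178 CPM in crwn1/2 and 34.3, 55.1, 54.7 and 60.9 CPM in WT at 6 DAP. At 7 DAP it had 17.4, 78.5, 87.1, 134 and 157 CPM in crwn1/2 and 1797, 1176, 711 and 672 CPM in WT. The log2 differences were -5.98 ± 0.71 (edgeR adjusted p = 4.32e-06) and -3.52 ± 0.43 (6.78e-06). AT1G62220 had 0.0978, 0.00 and 0.444 CPM in crwn1/2 and 9.03, 23.2, 9.73 and 21.8 CPM in WT at 6 DAP, with no overlap at either day. AT5G05020 and AT1G31670, the second inside the long region chr1:11334301-11359050, were likewise lower at both days without overlap. AT1G31670 had log2 differences of -4.48 (0.000912) and -3.02 (5.5e-05). RNS3, a secreted ribonuclease, had 3.76, 11.5, 9.74, 22.7 and 14.6 CPM in crwn1/2 and 235, 148, 118 and 72.3 CPM in WT at 7 DAP, a log2 difference of -3.51 ± 0.42 (5.81e-06). The most negative log2 differences at 7 DAP were those of AT1G03890 at -5.02 (0.00128) and AT4G31830 at -4.06 (0.00125). AT1G03890 had 0.111, 0.484, 3.03, 0.0752 and 0.00 CPM in crwn1/2 and 16.2, 2.81, 79.7 and 0.147 CPM in WT. AT4G31830 had 0.00, 0.276, 2.08, 1.05 and 0.135 CPM in crwn1/2 and 11.9, 8.03, 29.1 and 0.295 CPM in WT. Both overlapped, since WT replicate 4 lay within the crwn1/2 range. The AT4G31830 call was lost with a term for the replicate number in the model. AT1G03890 was covered to at least 82.3% in each crwn1/2 list, whereas AT4G31830 had no covered base in crwn1/2 endosperm replicate 1 or crwn1/2 leaf replicate 2. Of the 5 genes given before them, AT1G23570 was covered to 70.9% in crwn1/2 endosperm replicate 2, and otherwise all were covered whole in the 6 crwn1/2 lists.

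The genes with the largest rises were near 0 in WT at the day of the rise and uneven among the crwn1/2 libraries. AT5G54220 had 43.6, 92.1 and 6.04 CPM in crwn1/2 and 1.32, 0.243, 0.130 and 4.75 CPM in WT at 6 DAP, with no overlap at either day. Its log2 differences were 4.83 (edgeR adjusted p = 0.000554) and 4.95 (0.00128). SCRL10, of the family of SCR-like cysteine-rich peptides, had 102.8, 101.6 and 0.266 CPM in crwn1/2 at 6 DAP and 0.120, 0.851, 0.389 and 5.09 CPM in WT. AT1G56415 had 67.4, 75.2 and 0.0888 CPM in crwn1/2 and 0.241, 0.487, 0.00 and 0.453 CPM in WT. Both genes passed at 6 DAP (edgeR adjusted p = 0.00746 and 0.00394) although crwn1/2 replicate 3 lay within the WT range. AT1G29670 had 3.72, 23.6 and 15.2 CPM in crwn1/2 and 0.241, 0.365, 0.00 and 0.566 CPM in WT at 6 DAP (log2 difference 5.51, edgeR adjusted p = 0.000105). AT1G47395 had 2.84, 40.4 and 11.8 CPM in crwn1/2 and 1.203, 0.243, 0.00 and 0.340 CPM in WT (5.30, 0.000814), again with no overlap. At 7 DAP SK3, a SKP1-like gene, had 29.5, 3.52, 10.2, 25.4 and 31.5 CPM in crwn1/2 and 0.254, 0.268, 0.560 and 1.33 CPM in WT, a log2 difference of 5.06 ± 0.69 (2.77e-05). AT5G63230 and AT5G46877 were higher at that day too, by 6.47 (4.59e-05) and 6.82 (0.00127), without overlap. SK3, SCRL10 and AT1G47395 were covered whole in all 6 crwn1/2 lists. In crwn1/2 endosperm replicate 2, AT5G46877 and AT1G56415 had no covered base and AT5G54220 had 30.8%. AT5G63230 had none in crwn1/2 endosperm replicate 3 and 62.9% in replicate 1, and AT1G29670 had none in crwn1/2 endosperm replicates 1 and 3 and crwn1/2 leaf replicate 3.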

How the data were processed

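The deposited H3K27me3 lists held 1 peak list per library, with peak edges on a 150 bp grid. Per the file headers each peak carried a read count, a log2 enrichment over a control and an FDR, that is an adjusted p-value. The log2 enrichment and the FDR p-value are the authors' values and were used to rank, trim or summarise peaks of the same list. Not used here were 12 columns of control reads with no sample name and the 12 H3 and 12 IgG samples. The mRNA files held the authors' whole-number read counts per annotated feature, which were recorded as another unit because the layout could not be read automatically. The submitters' processing notes name SICER 0.0.52, DiffBind 3.8.4, Trim Galore 0.6.7, Bowtie2 2.3.4.1, SAMtools, Picard, deepTools, STAR 2.7.1a and HTSeq and the build TAIR10, without role or order. The strand setting is not given in the sources used here, so counts of overlapping, antisense and near-identical genes are uncertain.

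Bins, joined regions and cover were computed with Python 3.11.15. A region counted as kept where at least 50% of its bases lay under a peak. Left-out WT scoring rebuilt the regions from the other 5 WT lists. Genotypes and tissues were compared with two-sided exact permutation tests over lists. Genes were placed with the RefSeq table of TAIR10.1, whose chromosomes 1 to 5 were taken to share TAIR10 coordinates. It placed 31900 of 32399 gene identifiers of chromosomes 1 to 5 and gives no strand. The placement was checked by shifting the regions. Without a shift they held 3884 coding genes, of which 34.8% were expressed at 1 CPM, while shifts of 1 kb gave 3101 to 3139 genes and 37.3% to 37.6%. Shifts of 5 kb gave 61.7% to 62.4% expressed.

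Counts of all 20 mRNA libraries were fitted in 1 model with a term per group in edgeR 4.0.16 (R 4.3.3; quasi-likelihood test, TMM). Features needed a count of 10 by the edgeR filter and a total of 15. This left 24696 features, of which 21946 were genes placed on chromosomes 1 to 5. Benjamini-Hochberg adjustment ran over all features and the threshold was 0.05. CPM values are counts scaled by the TMM library total. On simulated counts with 200 genes changed in crwn1/2 at 6 DAP, 95.0% were recovered with 7 false calls. The changed genes had means above 5 CPM, and the raised ones had a median estimated log2 difference of 1.99. Their spread was drawn from its trend with expression, without outlying libraries. The check therefore does not cover genes near 0 CPM, smaller differences or outlying libraries. The alternatives were DESeq2 1.42.0, other size factors, no filter, a replicate block, 2 groups only, each library left out, other overlap and length limits, stricter FDR and equal covered length. Groups came from the labels.

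The text names the 10 longest regions and the 3 longest lost ones per tissue and in both (1 of them is not reported here), the members of 13 gene lists, and the 8 most raised and 4 most lowered genes per day with a mean of at least 5 CPM. The regions and lists were chosen with earlier results of these data known.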

Additional observations from a re-analysis of the deposited data

Results flagged for a closer look

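Of 60 groups of libraries tested for a sample far from the others, 7 were flagged in 19 genes, and chance flags about 1 in 20 groups. WT replicate 4 at 6 DAP stood apart in PHE1, with 2.72 CPM against 0.481 CPM in the next library. It also stood apart in SCRL10, with 5.09 CPM, and in RNS3, with 29.7 CPM. WT replicate 1 at 7 DAP stood apart in PHE1, with 0.634 CPM against 0.147 CPM in the next. WT replicate 4 at 7 DAP had 0.884 CPM of AT5G63230. Among crwn1/2 libraries of 7 DAP, replicate 4 had 23.6 CPM of AT3G01323 and replicate 3 had 3.03 CPM of AT1G03890.

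The genotype effect differed between 7 and 6 DAP for 10 of the listed or named genes in the edgeR interaction test, adjusted over all features. No share of all features that passed is given here, so this count has no background. AT4G15610, AT5G63230, SK3 and RNS3 were named by their differences at 6 or 7 DAP in these same data. The part of that choice in the count was not tested. The effect at 7 DAP minus that at 6 DAP was -4.29 ± 0.99 on the log2 scale for AT4G15610 (SE, adjusted p = 0.0178), which was higher in crwn1/2 at 6 DAP alone. It was 4.72 ± 1.18 for AT5G63230 (0.0281), 3.17 ± 0.89 for SK3 (0.048) and -2.41 ± 0.63 for RNS3 (0.0355). Among members of the gene lists in common regions it was 0.77 ± 0.17 for AIL6 (0.0144), -2.85 ± 0.69 for MEA (0.0225), 1.74 ± 0.45 for KNAT6 (0.0309) and 1.16 ± 0.31 for VIM5 (0.0377). Outside the common regions it was 1.59 ± 0.24 for LEC1 (0.000779) and 0.70 ± 0.19 for the sucrose transporter gene SUC5 (0.0402).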

How the results depend on the processing

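Of the values for regions and counts of genes under the alternatives, 31 of 222 moved. A count was marked as moved beyond a fixed ratio to its main value and could not reverse. Only the exact permutation results could reverse in sign, and none did. Short of a reversal, an exact permutation result counted as changed only if its p crossed 0.05, which so few lists do not allow. The endosperm difference of -5.42 points at equal covered length therefore counts as unmoved. At equal covered length the common regions numbered 1960, of which 1506 were kept in all 3 crwn1/2 endosperm lists and 1807 in all 3 leaf lists. Then 15 had no base in crwn1/2 endosperm and 5 none in leaf, and they held 2534 genes. Peaks with an FDR of at most 1e-05 left 154 regions with no base in crwn1/2 endosperm. Counted as kept only where every base was covered, 630 regions were kept in all 3 crwn1/2 endosperm lists. With the whole gene span required, 2422 genes were members, with 101 higher and 91 lower at 6 DAP and 99 higher and 166 lower at 7 DAP. Without the filter on low counts 565 were lower at 7 DAP. With a mean of at least 5 CPM, a limit chosen after seeing the data, 115 were higher at 6 DAP and 152 lower at 7 DAP. DESeq2 gave 232 higher and 217 lower at 6 DAP and 207 higher and 328 lower at 7 DAP. The whole-span, no-filter, DESeq2 and replicate block counts have no number tested or share of all genes beside them here. Such counts alone do not show whether calls exceeded those over all genes. For left-out libraries, shares were given above only without crwn1/2 replicate 2 at 6 DAP and without WT replicate 1 at 7 DAP. Leaving out 1 list or library gave ranges of -13.7 to -7.70 points for crwn1/2 minus WT cover in endosperm and -1.95 to -0.80 in leaf, -15.0 to -8.99 for endosperm minus leaf, 25.8 to 32.0 over endosperm-only and 10.1 to 15.6 over leaf-only regions. It gave 4091 to 4160 regions, 4124 to 4354 genes, 2563 to 3236 and 3800 to 3920 kept in endosperm and leaf, and 102 to 248 and 17 to 45 without a base there. The regions common to the crwn1/2 lists numbered 3780 to 3972. Calls ranged over 136 to 218 higher and 118 to 181 lower at 6 DAP, and 144 to 186 higher and 203 to 309 lower at 7 DAP. The cause of these shifts was not tested. Same-numbered replicates did not deviate together, with correlations of -0.0225 to 0.14 at 6 DAP, -0.0843 to 0.0332 at 7 DAP, -0.0197 to 0.0453 in endosperm peaks and -0.0829 to 0.0548 in leaf peaks. No pairing by number was thus seen, but with so few libraries these values cannot show that same-numbered ones were handled apart. With the replicate block 117 were higher and 119 lower at 6 DAP, 91 higher and 126 lower at 7 DAP, and the cover differences of -10.9 and -1.28 had exact permutation p of 0.25 and 0.5. With it CRU2, CRU3, SESA3, SESA4, OLEO2, DOG1 and AT4G31830 had edgeR adjusted p of 0.0517 to 0.125 at 7 DAP. Of 86 results for named genes, 54 never lost their call, and none of 1106 values reversed. Fewer reads in the crwn1/2 endosperm lists limit what cover can show.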

Other observations

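At 8 DAP there was no WT library, so the crwn1/2 values of that day enter no comparison of genotypes. These libraries did enter the shared model and the mean that set the limit of 5 CPM. All 10 listed storage and oil body genes, and the maturation genes FUS3, ABI3 and DOG1, had higher crwn1/2 means at 8 DAP than at 6 or 7 DAP. LEC2, with 17.3 CPM, and ABI4, with 6.84 CPM, had higher means at 6 DAP. FUS3 averaged 1106 ± 175 CPM, CRU3 1267 ± 497 CPM, OLEO1 1931 ± 449 CPM and AT1G23570 506 ± 127 CPM (SD, n = 4). HDG3 averaged 37.9 ± 14.98 CPM and PHE1 10.6 ± 8.31 CPM in the same libraries. SESA5 had a mean of 167 ± 60.8 CPM and DOG1 of 8.26 ± 3.71 CPM.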
